A study of Homo sapiens with 5 samples.

Results

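The cells described here are those of the breast cancer line MDA-MB-468 that carried the least mitotic RNA of their own culture. The members were chosen by measured values. For every cell the counts of 10 mitotic genes (MKI67, TOP2A, CDK1, CCNB1, CCNB2, UBE2C, BIRC5, CENPF, NUSAP1 and TPX2) were summed and divided by the total count of the cell, and the 25% of cells with the lowest share in each library were taken. This gave 1022 mitotic-low cells of 4101, namely 119 of 478 and 265 of 1063 in untreated day 0 (D0) replicates 1 and 2, and 119 of 479, 235 of 942 and 284 of 1139 after 3, 6 and 9 days of afatinib (D3, D6 and D9). The remaining 3079 cells are called the other cells.

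MDA-MB-468 is an established triple-negative line with an amplified EGFR gene, and afatinib is a covalent inhibitor of EGFR and ERBB2 that was given at 250 nM. All groups consisted of the same cells transduced with a lentiviral library of expressed lineage barcodes. The paper describes thawing of frozen samples before capture with a 3′ droplet kit, but names the freezing step only for treated cells. Untreated cells were captured in 2 libraries, and each treated day in 1 library, so that the day and the library cannot be told apart. Nothing in the labels says that the untreated replicates were separate cultures, so p-values cover only sample to sample spread, which can be technical. The authors had also aligned the D0 captures with a batch adjustment, which acts on the spread between the untreated libraries.

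Cells that have divided pass through G1, in which cyclin D with CDK4 or CDK6 and then cyclin E with CDK2 inactivate the retinoblastoma proteins and release E2F factors. E2F factors transcribe the genes of DNA replication, and a later wave driven by MYBL2 and FOXM1 transcribes the mitotic genes. In cells that leave the cycle the DREAM complex, which joins an E2F repressor to a retinoblastoma relative, holds both sets of genes down. Growth factor receptors such as EGFR act on the first step, through cyclin D. A low mitotic RNA content is found in G1, in early S phase and in cells outside the cycle, and the rule used here does not separate these states.

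The promoters of the rule genes are shown because their shared letters are the textbook mark of this control. NF-Y binds CCAAT, and the cell cycle genes homology region, read as TTTGAA or TTTAAA, is bound by the DREAM and MYBL2 complexes. Promoters of 7 of the 10 rule genes were matched in RefSeq on GRCh38.p14, and the 250 bases before each start were searched on both strands. CCAAT was found in 7 of 7, TTTGAA in 4 and TTTAAA in 5, and all 7 held CCAAT with at least 1 of the other letter strings. Among 35116 promoters of the same length, 32% held CCAAT, 13.3% held TTTGAA, 11.3% held TTTAAA and 7.64% held CCAAT with TTTGAA or TTTAAA. The letters TTTNNCGC, an E2F-type string chosen after the values were seen, were found in 1 of the 7 and in 5.92% of all promoters. The 165 bases that end 11 bases before the start are printed 5′ to 3′ on the gene's strand, with matches on either strand in capitals, for the rule genes and for RRM2 and MCM6, a pair of replication genes described below. Only the letters were searched, and a match is not a binding site.
MKI67 (chr10:128126434-128126598, minus strand): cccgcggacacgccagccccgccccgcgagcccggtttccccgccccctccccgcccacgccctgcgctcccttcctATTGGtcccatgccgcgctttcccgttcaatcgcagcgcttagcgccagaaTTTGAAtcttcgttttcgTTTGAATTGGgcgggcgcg
TOP2A (chr17:40417907-40418071, minus strand): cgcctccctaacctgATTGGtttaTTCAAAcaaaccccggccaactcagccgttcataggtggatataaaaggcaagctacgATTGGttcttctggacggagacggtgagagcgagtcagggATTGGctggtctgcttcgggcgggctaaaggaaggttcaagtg
CDK1 (chr10:60778156-60778320, plus strand): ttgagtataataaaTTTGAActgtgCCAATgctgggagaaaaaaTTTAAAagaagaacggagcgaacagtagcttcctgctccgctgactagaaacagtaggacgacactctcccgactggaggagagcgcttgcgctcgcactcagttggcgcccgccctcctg
CCNB1 (chr5:69166975-69167139, plus strand): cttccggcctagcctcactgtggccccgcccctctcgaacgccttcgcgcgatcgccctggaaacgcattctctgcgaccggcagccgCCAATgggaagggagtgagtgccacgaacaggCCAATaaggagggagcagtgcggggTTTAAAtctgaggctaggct
CCNB2 (chr15:59104971-59105135, plus strand): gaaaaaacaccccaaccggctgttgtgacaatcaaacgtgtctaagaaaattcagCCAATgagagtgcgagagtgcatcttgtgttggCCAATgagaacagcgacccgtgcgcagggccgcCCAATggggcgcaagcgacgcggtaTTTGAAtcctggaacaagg
CENPF (chr1:214603020-214603184, plus strand): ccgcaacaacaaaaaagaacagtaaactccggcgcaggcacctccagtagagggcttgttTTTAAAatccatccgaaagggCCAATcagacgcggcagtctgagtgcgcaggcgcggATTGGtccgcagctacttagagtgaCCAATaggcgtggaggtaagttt
NUSAP1 (chr15:41332706-41332870, plus strand): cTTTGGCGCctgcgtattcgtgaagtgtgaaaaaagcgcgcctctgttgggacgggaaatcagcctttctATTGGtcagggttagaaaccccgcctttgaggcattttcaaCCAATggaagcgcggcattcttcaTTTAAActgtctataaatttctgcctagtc
RRM2 (chr2:10122564-10122728, plus strand): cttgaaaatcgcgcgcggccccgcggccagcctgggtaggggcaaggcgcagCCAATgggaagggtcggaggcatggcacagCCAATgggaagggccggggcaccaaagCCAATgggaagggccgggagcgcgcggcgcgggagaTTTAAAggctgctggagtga
MCM6 (chr2:135876454-135876618, minus strand): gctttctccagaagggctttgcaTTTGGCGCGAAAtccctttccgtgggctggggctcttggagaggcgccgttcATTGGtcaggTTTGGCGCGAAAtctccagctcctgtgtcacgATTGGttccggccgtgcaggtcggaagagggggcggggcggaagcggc
RRM2, which encodes the small subunit of ribonucleotide reductase, held 3 CCAAT matches and 1 TTTAAA match in its 250 bases, and MCM6, a subunit of the replicative helicase, held 4 TTTNNCGC matches and neither TTTGAA nor TTTAAA. This pair does not stand for a split between replication genes that fell and those that did not. Of 9 replication gene promoters searched (RRM2, TK1, MCM10, EXO1, MCM2, MCM3, MCM6, MCM7 and PCNA, chosen after their values were seen), 6 held CCAAT, 2 held TTTAAA, 4 held TTTNNCGC and 1, that of RRM2, held CCAAT with TTTAAA. MCM10 and EXO1 held neither TTTGAA nor TTTAAA.

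The rule placed its limit at different levels in treated and untreated cultures. The highest member and the lowest non-member held a share of 955 and 960 rule CPM (counts of the rule genes per 1000000 counts of the cell) in untreated replicate 1, and 828 and 832 in untreated replicate 2. After afatinib the pairs of values were 337 and 347 at D3, 342 and 345 at D6, and 164 and 165 at D9. The median share in mitotic-low cells was 506 and 453 rule CPM in the untreated libraries against 106 (D3), 110 (D6) and 54.5 (D9), while the other cells had medians between 2025 and 2377 rule CPM in all 5 libraries. Cells without a single count of a rule gene numbered 0 and 2 among untreated cells and 26 (D3), 71 (D6) and 103 (D9) among treated cells, all among the members. Such zeros also depend on depth, and the median UMIs of mitotic-low cells, given below, were lowest at D6 and D9. With 1 limit for all libraries, set at the mean of both untreated limits (893 rule CPM), 23.0% and 27.2% of untreated cells lay below it, against 36.7%, 36.6% and 39.4% of treated cells. Since these values chose the members, they are given without a test.

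**Figure D1:**
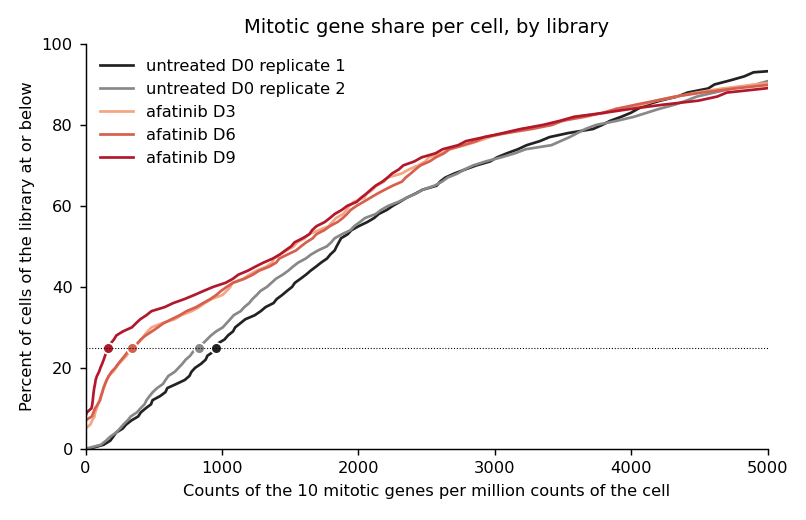
Percent of cells of each library (vertical axis) at or below a given rule gene share (horizontal axis, rule CPM), with a line for each of the 5 libraries and a dot at its limit for membership. The limits of the treated libraries lie between 165 and 344 rule CPM and those of the untreated libraries at 830 and 957, and the treated lines run above the untreated ones at low shares.

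Mitotic-low cells had fewer UMIs than the other cells in all 5 libraries. They had a median of 41302 and 20887 UMIs in the untreated libraries and 22483 (D3), 13678 (D6) and 17273 (D9) UMIs with afatinib, against 48630, 26456, 22789, 14140 and 22198 UMIs in the other cells. The ratio of the medians was 0.849 and 0.789 in untreated and 0.987, 0.967 and 0.778 in treated libraries, and these overlapped (difference 0.0913, exact permutation test over libraries, two-sided, p = 0.4). Mitochondrial transcripts took 6.72% and 8.28% of the counts of mitotic-low cells without afatinib and 15.9%, 14.8% and 8.30% at D3, D6 and D9 (difference 5.50 percentage points, exact permutation p = 0.2). In the other cells this share was 7.40%, 7.67%, 17.5%, 16.3% and 8.97%, so D3 and D6 stood apart from the rest in both classes, and the part of RNA quality in the results below was not tested except where values without those cells are given. Of the 8 markers of the line's epithelial identity, 8 were detected and 7 were higher in mitotic-low cells than in the other cells of all 5 libraries, among them KRT19 at 2320 to 3845 CPM (counts per 1000000 of the summed counts of the class) and EPCAM at 493 to 741 CPM. Of 12 markers of immune cells, fibroblasts and endothelium, COL1A1 and KDR were in the table, and together they gave 8.95 to 16.5 CPM.

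The 50 G2 and M phase genes outside the rule followed it. All 50 were lower in mitotic-low cells than in the other cells in each of the 5 libraries, with a median log2 ratio of -2.31 and -2.23 in untreated and of -4.01, -3.38 and -4.43 in treated libraries. A G2/M score from these genes was above 0 in 1.68% and 0.755% of untreated and in 0 of 119, 0 of 235 and 0 of 284 treated mitotic-low cells, with exact 95% binomial upper limits of 3.05%, 1.56% and 1.29% for the treated libraries. Among the other cells it was above 0 in 47.5% to 64.9%. Rule genes and G2/M genes rise together through the cycle, so this is a description of what the rule selected.

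Treated and untreated mitotic-low cells also differed in their S phase share under the limit of each library. A score of 52 S phase genes was above 0 in 50.4% and 53.6% of mitotic-low cells without afatinib, and in 34.5%, 31.1% and 25% at D3, D6 and D9. The treated and untreated shares did not overlap, and their means differed by -21.8 percentage points (exact permutation test over libraries, two-sided, p = 0.1, the smallest p that 3 against 2 libraries allow). The same share of the other cells was 57.7% and 54.6% without and 65.6%, 60.8% and 64.2% with afatinib. Cells with neither an S nor a G2/M score above 0 made up 49.6% and 45.7% of untreated and 65.5%, 68.9% and 75.0% of treated mitotic-low cells, but 7.24% to 11.4% of the other cells. Exact 95% binomial intervals, which cover counting error only, reached from 41.1% to 59.7% for the S phase share of untreated replicate 1 and from 20.1% to 30.5% for that of D9. With 1 limit for all libraries the mean S phase share was 52.3% in untreated and 40.5% in treated mitotic-low cells.

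**Figure D2:**
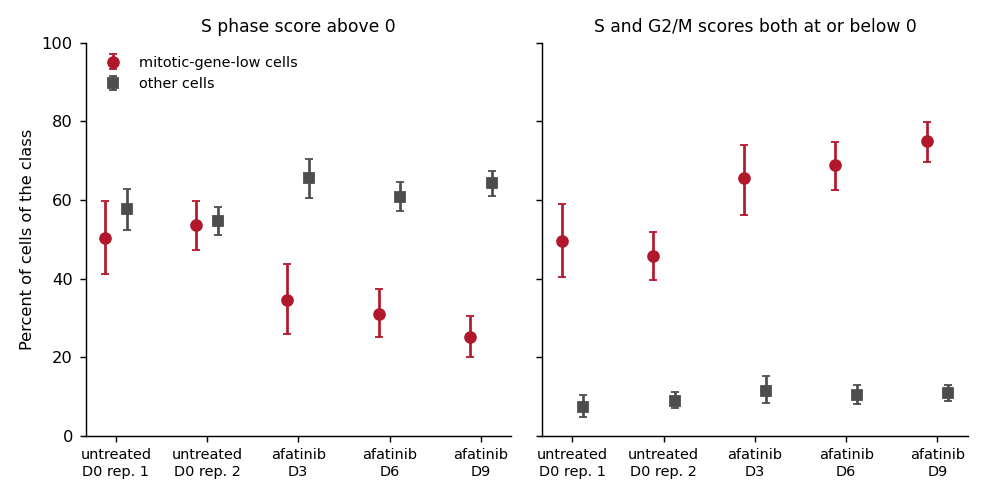
Percent of cells with an S phase score above 0 (left) and with S and G2/M scores both at or below 0 (right) in the 5 libraries, for mitotic-low cells (circles) and the other cells (squares), with exact 95% binomial intervals as bars. The S phase share of mitotic-low cells is 50.4% and 53.6% without and 25% to 34.5% with afatinib, while the other cells stay between 54.6% and 65.6%.

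Counts were then summed over the mitotic-low cells of each library. Treated sums were set against untreated sums in edgeR (quasi-likelihood test), with the 3 days as replicates of treatment. The paper describes collecting treated cells every 3 days from each treated replicate, so the 3 days need not be independent cultures. All untreated libraries are from D0, so treatment and time in culture cannot be told apart. Of 11956 genes tested, 929 rose (7.77%) and 964 fell (8.06%) at an adjusted p under 0.05. In the other cells 1512 of 12128 genes rose (12.5%) and 1221 fell (10.1%). Of the 1893 genes called in mitotic-low cells, 1411 were also called in the other cells, which is 74.5% of the former and 51.6% of the latter list. Both comparisons use cells of the same libraries. Whether a change differed between the classes was tested in 1 fit over the 10 sums with the library as a block (the interaction), which called 178 genes higher (1.47%) and 335 genes lower (2.77%) in mitotic-low cells than in the other cells, of 12105. Without mitochondrial and ribosomal protein genes this split was 108 to 340, and with DESeq2 it was 33 to 168. The number of calls rests on single libraries. In mitotic-low cells 375 and 245 genes were called without untreated replicate 1 or 2, 1182 without D6 and 4301 without D9, and the interaction called 280 and 237 without untreated replicate 1 or 2 and 319 without D9. Of the 87 called genes that were named by rule and are not rule genes, 43 and 35 were still called in mitotic-low cells without untreated replicate 1 or 2, 69 of 86 without D6, 86 of 86 without D9, and no direction turned.

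DNA replication genes divided into a group that fell in mitotic-low cells and a group that did not pass the test. Of the 52 S phase genes tested, 20 were called in mitotic-low cells and all of these fell, beside 8.06% of all genes. Their list had a median log2 change of -0.48 against 0.05 over all genes. In the other cells 3 fell and 2 rose (median -0.05), beside 10.1% and 12.5% of all genes. The difference itself was called for 24, all lower in mitotic-low cells, beside 2.77% of all genes. Since the class was cut on cycle genes, these 24 calls are a description. MCM10, which brings DNA polymerase alpha to the helicase, was at 45.2 and 52.2 CPM in untreated and at 7.40, 11.9 and 4.51 CPM in treated mitotic-low cells, and fell by 2.77 ± 0.30 (log2 fold change ± standard error, adjusted p = 0.000520). The treated sums were all far below both untreated sums, while in the other cells MCM10 was at 55.4 and 60.4 CPM without and at 43.9 to 47.9 CPM with afatinib.

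RRM2, whose promoter is printed above, was at 65.5 and 83.2 CPM in untreated mitotic-low cells and at 9.65 (D3), 23.2 (D6) and 14.5 (D9) CPM in treated ones. It fell by 2.34 ± 0.29 there (adjusted p = 0.000897), and stayed between 180 and 212 CPM in the other cells of all 5 libraries. The thymidine kinase TK1, which salvages thymidine, was at 80.3 and 84.5 CPM without afatinib and at 19.0, 19.4 and 12.6 CPM with it, and fell by 2.41 ± 0.21 (adjusted p = 0.000182). EXO1, an exonuclease of mismatch repair, was at 15.7 and 13.1 CPM against 2.25, 3.48 and 0.981 CPM, and fell by 2.87 ± 0.39 (adjusted p = 0.00141). BLM, a helicase that resolves recombination intermediates, fell by 2.39 ± 0.40 (adjusted p = 0.00387). In none of RRM2, TK1, EXO1 and BLM did the other cells change beyond the threshold. Chosen after their values were seen, DTL (a ubiquitin ligase subunit that acts in S phase), CLSPN (a checkpoint mediator), CDC6 (a loader of the helicase) and GMNN (the inhibitor of origin licensing) also fell, by 1.79, 1.20, 1.42 and 0.91 on the log2 scale.

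The replicative helicase showed another pattern. MCM2, MCM3, MCM4, MCM6 and MCM7, also chosen after their values were seen, had log2 changes of -0.03, 0.08, 0.10, -0.27 and 0.01 in mitotic-low cells, none past the threshold (adjusted p = 0.319 to 0.982). MCM3 was at 125 and 134 CPM in untreated and at 140.0, 143 and 160.1 CPM in treated mitotic-low cells, and MCM7 at 132 and 118 against 144.1, 129 and 134 CPM. MCM5 was the exception among the 6 subunits and fell from 71.7 and 73.4 CPM to 48.6, 35.4 and 42.2 CPM (log2 change -0.91, adjusted p = 0.00770). PCNA, the sliding clamp, was at 279 and 299.9 CPM in untreated and at 257, 279 and 370 CPM in treated mitotic-low cells, so the groups overlapped (log2 change -0.05, adjusted p = 0.899). Its interaction was -0.31, and -0.17 with 1 limit for all libraries. A p that misses the threshold does not show that levels were equal.

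The lower limit in treated libraries bears on these values. When 1 limit was used for all libraries, 12 of 52 S phase genes were called, all of them lower, with a median of -0.34. Of all 11971 genes 820 were called lower in that setting. The interaction then called 16 of 52, all lower, with a median of -0.21, beside 211 lower of all 12108 genes. These 16 calls are a description, since the class was cut on cycle genes. In mitotic-low cells MCM10 fell by 1.37 (adjusted p = 0.00849), RRM2 by 0.93 (adjusted p = 0.0323) and TK1 by 1.49 (adjusted p = 0.00214). EXO1, DTL, CDC6 and GMNN also kept their calls, with log2 changes of -1.10, -1.03, -1.03 and -0.75. BLM (-0.66, adjusted p = 0.202) and CLSPN (-0.60, adjusted p = 0.0782) did not. With the S-positive cells left out of the mitotic-low sums, 8 of 48 S phase genes were called, all lower (median -0.30). Of all 11290 genes 753 were then called lower. The rule genes themselves and the other G2/M genes are given as a description. Their median log2 changes in mitotic-low cells were -2.24 and -1.89 with the limit of each library, and with 1 limit for all libraries the medians were -1.11 and -0.87. PTTG1 (securin) was at 326 and 296 CPM without and at 47.6, 65.5 and 52.2 CPM with afatinib, and CDKN3, a phosphatase that acts on CDKs, at 173 and 174.7 against 22.2, 19.4 and 12.4 CPM. The medians in the other cells were -0.17 and -0.29.

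**Figure D3:**
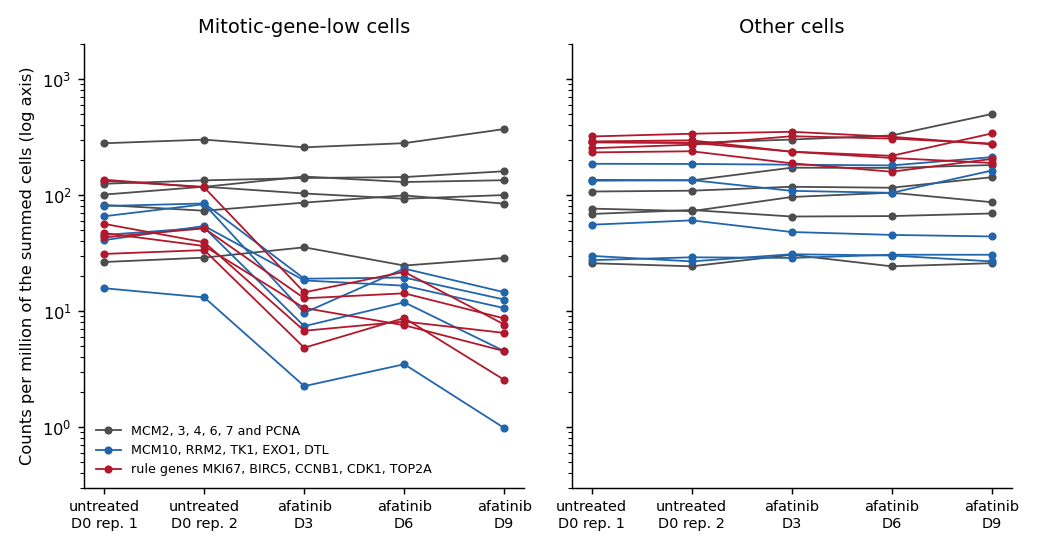
CPM (log axis) of 16 genes in the 5 libraries, summed over mitotic-low cells (left) and over the other cells (right), with a line for each gene. In mitotic-low cells MCM2, MCM3, MCM4, MCM6, MCM7 and PCNA (grey) are drawn for comparison, with MCM3 at 125 to 160.1 CPM and PCNA at 257 to 370 CPM, while MCM10, RRM2, TK1, EXO1 and DTL (blue) and the rule genes (red) lie lower in every treated library, a difference that the other cells do not show to that extent.

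Upstream of replication stand the regulators of the step from G1 to S. Of 25 tested, 5 fell and 1 rose in mitotic-low cells (median -0.12), beside 8.06% and 7.77% of all genes. In the other cells 3 rose and 1 fell (median 0.17), beside 12.5% and 10.1% of all genes. The interaction called 7, all lower in mitotic-low cells, beside 2.77% of all genes. With 1 limit for all libraries it called 4, all lower, beside 211 lower of all 12108 genes. Since the class was cut on cycle genes, these counts of the interaction are a description. Cyclin E1 (CCNE1), the partner of CDK2, was among the genes that marked mitotic-low cells, with log2 ratios to the other cells of 1.20 and 1.23 in untreated and of 0.63, 0.87 and 0.65 in treated libraries. Within mitotic-low cells CCNE1 was at 102 and 118 CPM without and at 65.0, 51.9 and 67.7 CPM with afatinib, and fell by 0.95 ± 0.18 (adjusted p = 0.00723). CDK2 was at 16.1 and 16.9 CPM against 8.04, 9.57 and 9.42 CPM, and fell by 0.98 ± 0.22 (adjusted p = 0.0158). The phosphatase CDC25A, which activates CDK2, fell by 0.93 (adjusted p = 0.0200) from 19.0 and 18.6 CPM to 8.69, 12.2 and 10.8 CPM.

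With 1 limit for all libraries CCNE1 stayed past the threshold (-0.89, adjusted p = 0.0105), whereas CDK2 (-0.57, adjusted p = 0.0839) and CDC25A (-0.58, adjusted p = 0.128) did not. MYBL2 and FOXM1, the activators of the mitotic wave, were at 77.2 and 83.4 and at 25.3 and 29.2 CPM in untreated mitotic-low cells, and fell by 1.54 ± 0.22 and 1.02 ± 0.23 (adjusted p = 0.00163 and 0.0149). With 1 limit MYBL2 still passed (-1.01, adjusted p = 0.00928) and FOXM1 did not (-0.35, adjusted p = 0.248). In the other cells the log2 changes of MYBL2 and FOXM1 were -0.03 and 0.47, and the interaction was -1.52 and -1.50. With 1 limit the interaction was -1.07 and -0.93. These differences are a description, since the class was cut on genes of the mitotic wave. Cyclin D1 (CCND1) was at 186 and 151 CPM without and at 266, 347 and 273 CPM with afatinib (0.70 ± 0.21, adjusted p = 0.0479), a call that held in 6 of 15 alternatives and was lost with 1 limit (0.66, adjusted p = 0.0557). Its change in the other cells was 0.51 and the interaction 0.22 (adjusted p = 0.440). MYC, another growth factor target, had a log2 change of 0.69 that missed the threshold (adjusted p = 0.0583). Both CCND1 and MYC were higher in each treated than in each untreated library.

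E2F2, an activating E2F, was at 15.9 and 18.4 CPM in untreated other cells and at 57.6, 68.9 and 45.4 CPM in treated ones, a rise of 1.60 (adjusted p = 0.00354). In mitotic-low cells E2F2 was at 21.5 and 25.4 CPM against 36.4, 44.4 and 28.1 CPM (0.51, adjusted p = 0.158), and the interaction was -1.08 ± 0.14. This difference is a description, since the class was cut on cycle genes. E2F1 was at 35.6 and 31.2 CPM in untreated and at 26.7 to 32.2 CPM in treated mitotic-low cells. CDK4, CDK6, RB1, RBL2, SKP2, TFDP1 and the MuvB genes LIN9, LIN37, LIN52 and LIN54 did not pass the threshold in mitotic-low cells, with log2 changes between -0.79 for LIN9 and 0.13 for CDK4.

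Inhibitors of the cycle did not rise as a group. Of 20 genes listed as brakes, 2 rose and 3 fell in mitotic-low cells, beside 7.77% and 8.06% of all genes. Their median was 0.13 against 0.05 over all genes. Cyclin G2 (CCNG2), a FOXO target found in resting cells, was at 4.41 and 4.64 CPM without and at 11.9, 21.2 and 9.02 CPM with afatinib (1.5 ± 0.39, adjusted p = 0.0256), and cyclin G1 (CCNG1), a p53 target, rose by 0.75 ± 0.21 (adjusted p = 0.0376). The CDK inhibitor p21 (CDKN1A) was at 15.7 and 13.1 CPM without and at 6.11, 12.8 and 9.61 CPM with afatinib (-0.70, adjusted p = 0.133). For p27 (CDKN1B) the values were 10.7 and 10.9 against 13.5, 12.5 and 18.0 CPM (0.34, adjusted p = 0.366). CDKN2A, which encodes p16 and ARF, stood at 304 and 291 against 289.9, 284 and 389.8 CPM (0.00, adjusted p = 0.996). CDKN2D fell by 0.72 ± 0.18 (adjusted p = 0.0239) and the DNA damage gene GADD45A by 1.71 ± 0.19 (adjusted p = 0.000557), the latter from 111 and 109 CPM to 32.5, 43.8 and 33.0 CPM. BTG1, an antiproliferative gene, fell by 0.73 ± 0.22 (adjusted p = 0.0454). With 1 limit for all libraries CDKN2D (-0.37, adjusted p = 0.220) and CCNG1 (0.72, adjusted p = 0.0614) were no longer called.

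Mitotic-low cells also differed from the other cells of their own library in genes outside the cycle. This is the contrast the rule made and carries no test. Among the 6265 genes whose mean reached 20 CPM, 18 (0.287%) were higher and 78 (1.25%) were lower by a log2 ratio of at least 0.5 in all 5 libraries. After CCNE1, the genes higher in mitotic-low cells by the naming rule included the keratins KRT6B and KRT15, IGFBP5 (an IGF-binding protein), DEPTOR (an inhibitor of mTOR), BMP4 (a growth factor of the TGF-beta family), CDCA7 (an E2F and MYC target), LRRC26, PUS3 and the RNA SNHG19. KRT6B was at 72.04 and 81.1 CPM in untreated mitotic-low cells against 34.1 and 25.3 CPM in the other cells, and at 41.8, 16.2 and 20.01 CPM against 15.0, 5.80 and 7.07 CPM after afatinib. The reads of KRT6B may be shared with near-identical keratin genes. IGFBP5 was at 238 and 255 against 133 and 147 CPM without, and at 152, 160.3 and 89.6 against 76.2, 71.2 and 39.6 CPM with afatinib. DEPTOR was at 16.5 and 16.1 against 7.603 and 5.97 CPM, and at 30.6, 40.0 and 44.3 against 19.1, 21.2 and 26.9 CPM, so that it rose with afatinib in both classes. Lower in mitotic-low cells were rule genes and their relatives, among them ASPM, CKS2, CDC20, KIF20B, the linker histone H1-1 and KPNA2, an importin, which was at 51.3, 43.6, 38.3, 32.8 and 41.2 CPM against 164 to 205 CPM.

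Among the strongest falls in mitotic-low cells were those of metal-binding metallothioneins, whose reads near-identical copies may share. MT1E was at 977 and 899 CPM without afatinib and at 15.1, 9.28 and 3.92 CPM with it, and MT2A at 2719 and 2760.3 against 135, 155 and 28.1 CPM. The log2 changes were -6.81 ± 0.40 and -4.81 ± 0.56 (adjusted p = 2.63e-05 and 0.000612). For MT2A the fall in mitotic-low cells exceeded that in the other cells, with an interaction of -0.75 ± 0.10 (adjusted p = 8.66e-05). For MT1E it did not pass (-0.26, adjusted p = 0.418). Of 8 metallothionein and zinc genes tested, 5 fell and 1 rose in mitotic-low cells, and likewise in the other cells. Of all genes 8.06% fell and 7.77% rose in mitotic-low cells, and 10.1% and 12.5% in the other cells.

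Genes of basal and squamous keratinocytes fell as well, with 14 of 17 tested called in mitotic-low cells, all of them lower (median -1.70), beside 8.06% of all genes. Fewer were called without untreated replicate 1 or 2, with medians of -1.54 and -1.65. KLK6, a secreted protease, was at 495 and 534 CPM and then at 109, 47.3 and 29.8 CPM, and KRT15 at 315 and 332 CPM and then at 102, 38.3 and 55.1 CPM. Falls of more than 3 on the log2 scale were also seen for CST6 (a cysteine protease inhibitor), ATP6V0D2 (a proton pump subunit), INHBA (a subunit of activin) and ADIRF. Direct outputs of the ERK pathway fell in 6 of 17 and rose in 1 (median -0.58), beside 8.06% and 7.77% of all genes. Here too fewer were called without untreated replicate 1 or 2, with medians of -0.48 and -0.40. FOSL1, a transcription factor of the AP-1 family, was at 59.0 and 70.8 CPM without and at 11.9, 11.6 and 5.88 CPM with afatinib (-2.88 ± 0.26, adjusted p = 0.000242). The ERK inhibitors SPRY2, DUSP5 and DUSP6 fell, with log2 changes of -1.40, -1.74 and -1.39. The interaction called 0 of the 17 ERK output genes with edgeR and 0 with DESeq2, and 4 had an unadjusted p under 0.05 in edgeR. The EGFR ligand AREG fell from 13.8 and 13.6 CPM to 2.57, 1.45 and 0.981 CPM (-3.22, adjusted p = 0.000533), and EGFR itself was at 917 and 957 against 1052, 864 and 647 CPM (-0.25, adjusted p = 0.524). ERBB2 and ERBB3 rose by 0.88 and 0.80 (adjusted p = 0.0128 and 0.0203).

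Among the rises in mitotic-low cells were the aldo-keto reductases AKR1C2 and AKR1C1 (2.81), which can share reads. AKR1C2 was at 4.02 and 2.15 CPM without and at 12.2, 49.6 and 49.4 CPM with afatinib (3.51 ± 0.59, adjusted p = 0.00414). ZNF750, a factor of epidermal differentiation, was at 3.07 and 5.30 against 24.5, 78.9 and 24.1 CPM (3.21 ± 0.58, adjusted p = 0.00575), and NRARP, a target and inhibitor of Notch signalling, at 7.66 and 7.13 against 31.5, 53.6 and 17.1 CPM (2.07 ± 0.43, adjusted p = 0.0103). BBOX1 (carnitine synthesis), NR4A2 (an orphan nuclear receptor), SELENOP (a selenium carrier), ALCAM (an adhesion molecule) and TRPV6 (a calcium channel) rose by 2.86, 2.38, 2.35, 2.18 and 2.18. Of 22 genes of the integrated and unfolded protein stress responses, 13 were called and all of these rose (median 0.92), beside 7.77% of all genes. Far fewer were called without untreated replicate 1 or 2, though the medians were 1.03 and 0.87. HERPUD1, which acts in the removal of misfolded proteins, was at 52.1 and 40.9 CPM and then at 119, 340.1 and 196 CPM, and SLC7A11, the cystine transporter, at 5.75 and 4.81 CPM and then at 19.6, 25.8 and 23.0 CPM. FOXO targets rose in 6 of 15 and fell in 2 (median 0.66), beside 7.77% and 8.06% of all genes. Their calls also fell in number without untreated replicate 1 or 2, with medians of 0.73 and 0.67. TSC22D3, KLHL24 and SESN3 were up by 2.04, 1.78 and 1.54.

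IGFBP2, a carrier of insulin-like growth factors, was at 126 and 120 CPM in untreated and at 172, 202 and 245 CPM in treated mitotic-low cells, higher in every treated library but not past the threshold (0.64 ± 0.21, adjusted p = 0.0588). With 1 limit for all libraries it passed (0.75, adjusted p = 0.0395). In the other cells it was at 128 and 129 against 242, 221 and 299 CPM (0.84, adjusted p = 0.0178), and the difference between the classes was not called (-0.20, adjusted p = 0.263). The receptor IGF1R rose in mitotic-low cells from 12.1 and 14.8 CPM to 34.4, 32.8 and 23.9 CPM (1.05 ± 0.23, adjusted p = 0.0133), with an interaction of 0.25 (adjusted p = 0.616). IGFBP5, IGFBP4 and IRS1, an adaptor of the IGF receptor, fell, with log2 changes of -0.999, -1.18 and -1.33. CCL20, a chemokine, had 0 counts in both untreated mitotic-low sums and 1, 7 and 27 counts at D3, D6 and D9, too few for a fold change. Of 30 interferon response genes 0 were called in mitotic-low cells by edgeR, although 14 had an unadjusted p under 0.05, and DESeq2 called 2 of 31. This count rests on single libraries and cells, since edgeR called 15 of 29 higher without D9, 8 of 30 without D6, 7 of 30 without S-positive cells and 4 of 30 without cells over 10% mitochondrial counts. In the other cells 7 of 31 rose and 1 fell, and the interaction called 1. Of all genes 7.77% rose in mitotic-low cells and 12.5% in the other cells.

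Outside the rule, G2/M and S phase lists the interaction called 178 genes higher and 266 lower in mitotic-low cells. FBXW7, the substrate receptor of a ubiquitin ligase that marks cyclin E for degradation, was at 11.3 and 11.8 CPM in untreated and at 35.4, 41.5 and 37.3 CPM in treated mitotic-low cells. In the other cells it was at 15.4 and 17.0 against 28.0, 32.3 and 29.2 CPM. It was thus lower than in the other cells in both untreated libraries and higher in the 3 treated ones, and the interaction was 0.87 ± 0.17 (adjusted p = 0.00242). FBXO32 (atrogin-1), another ubiquitin ligase receptor and a FOXO target in muscle, was at 108 and 120.0 CPM without and at 153, 147 and 132 CPM with afatinib in mitotic-low cells, against 106 and 101.3 and then 89.8, 87.2 and 64.8 CPM in the other cells (interaction 0.74 ± 0.10, adjusted p = 5.89e-05). The classes differed little without and clearly with afatinib. Neither class alone passed the threshold for FBXO32 (adjusted p = 0.438 and 0.0779).

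The sterol synthesis enzymes HMGCS1 and MSMO1 had interactions of 0.84 ± 0.19 and 0.84 ± 0.17 (adjusted p = 0.0103 and 0.00400). HMGCS1 rose in mitotic-low cells from 14.8 and 17.9 CPM to 25.7, 35.9 and 33.9 CPM (adjusted p = 0.0279) and was at 24.3 to 30.3 CPM in the other cells of all libraries. MSMO1 was at 25.7 and 29.3 against 24.1, 28.4 and 41.2 CPM in mitotic-low cells, and fell in the other cells from 37.2 and 35.5 CPM to 22.2, 23.9 and 25.7 CPM. Of 25 genes of cholesterol and fatty acid synthesis 3 had an interaction, all higher in mitotic-low cells, beside 1.47% of all genes. The median was 0.25 against 0.03 over all genes. The 3 calls rest on single libraries, since without D9 the median was 0.14, none of these 3 genes was called and another gene was called lower, whereas without D3 the interaction called 10 of 25 higher (median 0.35).

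GCNT2, which branches glycans, rose from 14.9 and 13.9 CPM to 50.5, 85.2 and 31.6 CPM in mitotic-low cells (interaction 0.84 ± 0.14, adjusted p = 0.000848). The signalling inhibitor RGS2 fell in both classes but less in mitotic-low cells, from 85.8 and 85.0 CPM to 21.2, 6.96 and 14.9 CPM, against 57.5 and 65.2 and then 8.33, 3.76 and 6.04 CPM (interaction 0.80 ± 0.16, adjusted p = 0.00427). EDN1 (endothelin-1), a secreted peptide, was at 64.0 and 60.2 against 38.9, 61.8 and 41.4 CPM in mitotic-low cells, and at 77.5 and 82.2 against 34.0, 47.1 and 35.5 CPM in the other cells (interaction 0.67 ± 0.11, adjusted p = 0.000503). KMO, an enzyme of tryptophan breakdown, POLR3D, a subunit of RNA polymerase III, and ZNF830 had interactions of 0.84, 0.70 and 0.67. Cells with over 10% mitochondrial counts made up 77.3% (D3) and 74.9% (D6) of mitotic-low cells. In untreated replicates 1 and 2 and at D9 this share was 16.0%, 19.6% and 19.0%. Without these cells 27 mitotic-low cells were left at D3 and 59 at D6. The interaction then called 28 genes higher and 255 lower, and of the 10 genes named here FBXO32, EDN1 and HMGCS1 were still called. After thinning to 5000 UMIs 7 of all 17 named interactions were kept. These were the 7 lower ones, all of cell cycle genes, so none of the 10 genes named here was called. With DESeq2, with the lowest 10% of cells and without S-positive cells, 10 of the 17 were kept each time, the 7 lower ones among them. With each library left out in turn FBXO32, EDN1 and GCNT2 were called every time. FBXW7 and RGS2 lost their calls without untreated replicate 2, MSMO1 without D9 or untreated replicate 1, and HMGCS1, KMO, POLR3D and ZNF830 without several libraries each.

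**Figure D4:**
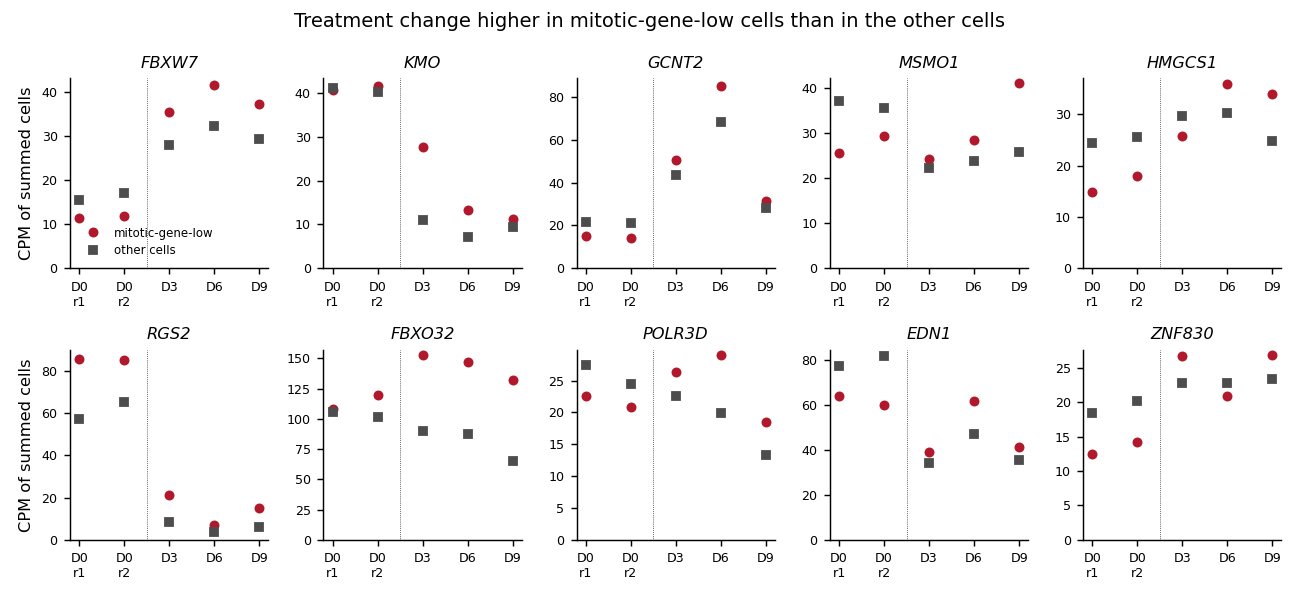
CPM of the 10 genes with the highest interaction in each of the 5 libraries (horizontal axis, D0 replicates 1 and 2, D3, D6 and D9), for mitotic-low cells (circles) and the other cells (squares), with the dotted line between untreated and treated libraries. FBXW7, GCNT2 and POLR3D lie below the other cells in both untreated libraries and above them in every treated library, and FBXO32 is at 132 to 153 CPM in treated mitotic-low cells against 64.8 to 89.8 CPM in the other cells.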

How the data were processed

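Single-cell 3′ RNA sequencing of 5 libraries was used. The submitters' processing notes name Cell Ranger 6.1.2 and GRCh38 for alignment and counting. Before deposit the authors took out shallow cells (under 5000 UMIs), cells whose mitochondrial share was outlying, and doublets. They used ComBat-seq to align the D0 captures, and dropped weakly expressed genes. Values in the matrix that the authors deposited are expected counts: UMI counts after that adjustment, with no scaling for depth, all whole numbers. The tests had been planned for plain UMI counts and were kept. The other deposited columns hold other things, namely cell names, identifiers and symbols. No further cells were removed here. The matrix has 12474 genes and 4101 cells, and 1 cell barcode was shared by 2 cells of different libraries. For 398 genes the symbol came from a reference table.

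The rule was applied within each library, with ties in file order. Counts were summed over mitotic-low and over other cells of each library, which gave 3107969 to 6033020 counts per mitotic-low sum and 11409610 to 22115359 per other sum. Intervals and limits cover counting error only. Sums were compared with edgeR 4.0.16 (quasi-likelihood test, TMM factors, filterByExpr, Benjamini-Hochberg adjustment) in R 4.3.3. The fit of mitotic-low sums had 3 residual degrees of freedom and a biological coefficient of variation of 0.176. The interaction was fitted over all 10 sums with the library as a block and had 3 residual degrees of freedom and a coefficient of 0.0427. CPM are counts divided by the sum. Ratios of mitotic-low to other cells within a library used 0.5 added counts. Both fits were tested on simulated data. S and G2/M scores were computed with scanpy 1.11.5 on cells thinned to 5000 UMIs, which lost 0 cells. Shares and ratios were compared with an exact permutation test over libraries, two-sided.

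The members, the 24 gene lists and the tests were chosen with earlier results of these data known. Genes were named with a mean of at least 20 CPM in mitotic-low cells, as the 10 largest interaction changes each way among called genes, the 10 genes most above and most below the other cells in all 5 libraries, and the 10 largest called rises and falls with treated and untreated libraries that did not overlap. Up to 4 called members of each list, all brakes and G1 to S regulators, the rule genes, EGFR, ERBB2, IGFBP2 and IGF1R were named with no minimum. Alternatives were other size factors, DESeq2 1.42.0, no count filter, the lowest 10% of cells, reversed ties, thinned cells, 1 limit for all libraries, S-positive cells left out, cells over 10% mitochondrial counts left out, mitochondrial and ribosomal protein genes left out, and each library left out. Some results are not reported here.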

Additional observations from a re-analysis of the deposited data

Results flagged for a closer look

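The afatinib change of 17 genes, named by rule and outside the rule genes, differed between mitotic-low cells and the other cells in the interaction fit of edgeR. Higher in mitotic-low cells, by the difference of the log2 changes, were FBXW7 (0.87), KMO (0.84), GCNT2 (0.84), MSMO1 (0.84), HMGCS1 (0.84), RGS2 (0.80), FBXO32 (0.74), POLR3D (0.70), EDN1 (0.67) and ZNF830 (0.67). Lower were CDKN3 (-2.41), PTTG1 (-2.34), MCM10 (-2.32), RRM2 (-2.27), TK1 (-2.24), CDC20 (-2.08) and ASF1B (-2.06). The last 7 are cell cycle genes, and since the class was cut on such genes their differences are a description. The limit for membership lies lower in treated libraries, and its part in their values is seen with 1 limit for all libraries, where RRM2, TK1 and MCM10 had differences of -0.96, -1.39 and -0.89.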

How the results depend on the processing

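In mitotic-low cells 1893 genes were called, and the interaction called 513. The number in mitotic-low cells was 1042 with the lowest 10% of cells, 758 after thinning and 1190 without cells over 10% mitochondrial counts, and 245 to 4301 with each library left out. The interaction called 201 with DESeq2, 131 with the lowest 10% of cells, 135 after thinning, 288 without S-positive cells and 283 without cells over 10% mitochondrial counts, and 237 to 639 with each library left out. Fewer cells or counts entered several of these fits, and the cause was otherwise not tested. The ratio of UMI medians differed by 0.0913 between treated and untreated libraries and by -0.0721 without cells over 10% mitochondrial counts. The S phase share of mitotic-low cells stayed lower with afatinib in all alternatives run, by 11.8 to 24.0 percentage points. Of 87 named calls in mitotic-low cells 76 held with 1 limit for all libraries and 80 with DESeq2. Of 17 named interactions 16 held with 1 limit, 10 with DESeq2 and 7 after thinning. The lower interactions, all of cell cycle genes, were kept in each of these settings. The 7 interactions lost with DESeq2 and the 10 lost after thinning were thus all higher ones, and no higher one was left after thinning. No named change turned its direction. No paired analysis was possible because treated days have 1 library each and share no numbered pairs with the untreated replicates.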

Other observations

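The remaining gene lists are given by their counts in mitotic-low cells (edgeR, adjusted p under 0.05) and their median log2 change with afatinib, beside a median of 0.05 over all genes tested. Of all 11956 genes tested, 7.77% rose and 8.06% fell. Lists with counts near these shares, such as the lysosomal genes, are not read as changed. Of 19 Notch and differentiation genes tested, 5 rose and 1 fell (median 0.45), and of 12 genes of the IGF axis 4 rose and 4 fell (median 0.43). Of 27 lysosomal genes 2 rose and 1 fell (median 0.07), and of 26 genes of hypoxia and glycolysis 2 rose and 3 fell (median -0.33). Of 15 YAP and TEAD targets 2 rose and 3 fell (median -0.10), and of 22 genes of epithelial adhesion 4 rose and 3 fell (median 0.06). Mesenchymal and matrix genes gave 1 rise and 1 fall among 12 (median -0.51), the BCL2 family of apoptosis regulators 1 rise and 1 fall among 16 (median 0.18), and secreted inflammatory factors 2 rises and 2 falls among 15 (median 0.24). Genes of cholesterol and fatty acid synthesis gave 4 rises and 1 fall among 25 (median 0.37), and receptors and ligands of the ERBB family 2 rises and 2 falls among 7 (median -0.25).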
